A study of Mus musculus with 5 samples.

Results

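The Dlk1-Dio3 miRNAs are a long run of miRNA hairpins in an imprinted region of mouse chromosome 12. They were taken here by number from the deposited small RNA table. Of 46 miRNA numbers assigned to the region, 43 had a row, which gave 48 mature miRNAs out of 1105 listed; miR-453, miR-1193 and miR-1197 were not analysed here. Of the 48, 46 were 5p arms and 2 were 3p arms (miR-299a-3p and miR-299b-3p), so the 3p arms of most of these hairpins, which for several of them are the main product, were not analysed here.

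The libraries came from OP9, a stromal line of mouse bone marrow that can form adipocytes. The Drosha knockout group had 2 libraries of cells labelled Drosha KO, and the empty-vector group had 3 libraries of cells labelled WT that carried an empty vector. All 5 were grown to confluence and then held for 10 days with 1 µM rosiglitazone, a PPARγ agonist that drives adipocyte formation. How the knockout was made, and whether it was a clone or a pool, was not stated in the labels, and small RNA values give no check on Drosha itself. The labels name no separate cultures behind the libraries of a group, so a p-value measures the spread between libraries alone, and that spread may be technical.

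In this region the maternal chromosome makes long non-coding transcripts (Meg3, Rian and Mirg) that carry the miRNA hairpins, while the paternal chromosome expresses the protein-coding genes Dlk1, Rtl1 and Dio3. Dlk1, also called Pref-1, is a membrane protein of preadipocytes that holds back adipocyte formation, and the miRNAs of the region are known mainly from brain, placenta and embryo. Drosha, with its partner DGCR8, cuts hairpins out of such long primary transcripts in the nucleus, and Dicer then frees the mature strands.

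On build GRCm38, RefSeq placed 44 hairpins of the members over 171.8 kb, all on the plus strand except Mir299b. The 11 members on the Meg3 side (here the proximal members) and the 37 on the Mirg side (the distal members, from miR-379 to miR-410) were separated by 90.7 kb. Mir411 lay at chr12:109710175-109710256 and Mir379 at chr12:109709060-109709125, 1049 bases before it, with no protein-coding or long non-coding gene annotated over either. Mir369 lay 33.2 kb after Mir411, at chr12:109743418-109743496, within Mirg (chr12:109729764-109749460).

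The mature sequences below (RefSeq, GRCm38.p6; 5′ to 3′) are those of the 3 members that reached the test, followed by the 3 members that shared the longest runs of bases. The seed, bases 2 to 8, is in capitals.
miR-411-5p: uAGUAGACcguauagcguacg
miR-379-5p: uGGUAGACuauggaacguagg
miR-369-5p: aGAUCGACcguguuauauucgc
miR-494-5p: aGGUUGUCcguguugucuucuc
miR-154-5p: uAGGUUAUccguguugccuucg
miR-410-5p: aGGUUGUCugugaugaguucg

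The seeds of miR-411-5p and miR-379-5p shared the 6 bases GUAGAC at positions 3 to 8, and the whole sequences differed at 7 of 21 bases. miR-494-5p and miR-410-5p had the same seed, the only shared seed among the 14 members with reads for which a sequence was given. miR-494-5p and miR-154-5p shared a run of 9 bases, UCCGUGUUG. Among listed miRNAs with a sequence, the nearest to miR-411-5p was miR-379-5p and the nearest to miR-379-5p was miR-380-5p, with 6 mismatches over 21 bases. The nearest to miR-369-5p was miR-494-5p, with 6 mismatches over 22 bases. The 14 sequences had a median GC content of 47.7%, against 50.0% for the members without reads and 52.2% for the 938 listed miRNAs with a sequence.

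The hairpins of the 3 tested members are shown because they are the form that Drosha cuts out; the deposited 5p arm is in capitals.
Mir411: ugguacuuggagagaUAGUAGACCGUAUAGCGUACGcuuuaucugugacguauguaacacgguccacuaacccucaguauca
Mir379: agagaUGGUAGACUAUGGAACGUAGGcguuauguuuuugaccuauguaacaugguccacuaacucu
Mir369: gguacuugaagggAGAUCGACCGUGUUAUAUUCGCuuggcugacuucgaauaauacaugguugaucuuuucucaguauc

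The values are TPM, reads divided by the length of the mature miRNA and scaled to the same sum in each library, so every difference below is one of relative abundance. Whole reads could be recovered from them. Counting 1 precursor per mature miRNA, the knockout libraries held 214264 and 200659 reads and the empty-vector libraries 1613590, 1466826 and 1347800, a 7.11-fold difference in mean depth. A single read of 22 bases stood for 3.32 and 3.67 TPM in the knockout libraries, against 0.448, 0.499 and 0.528 TPM with the empty vector. Since 0 reads leave room for 3, a miRNA without reads could be at up to 9.95 and 11.0 TPM in the knockout libraries and at up to 1.34, 1.5 and 1.58 TPM with the empty vector. These limits and the 95% intervals below cover counting error only. Stromal miRNAs were abundant. They summed to 35410 and 46519 TPM in the knockout libraries, against 30348, 33775 and 32255 TPM with the empty vector. No read fell on the 8 epithelial or 5 muscle marker miRNAs listed. Most of these were 5p arms, so their zeros do not cover the 3p arms that were not listed.

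The 48 listed arms of the cluster, 46 of them 5p, were together a trace component of these libraries. In TPM their sum was higher in the knockout. Against the miRNAs made without Drosha that sum was lower, from few member reads, as given further on. The 48 members summed to 146 and 145 TPM in the knockout libraries and to 38.3, 31.3 and 36.5 TPM in the empty-vector libraries. In bulk libraries, fewer cells of a type and less RNA per cell cannot be told apart. The groups did not overlap, and the mean of 146 ± 1.21 TPM (SD, n = 2) in the knockout was 4.12 times the mean of 35.4 ± 3.64 TPM (SD, n = 3) with the empty vector. Without miR-411-5p, its most abundant member, the log2 ratio of the sums was 2.09, against 2.04 with it. No test was made of these sums, since the members were chosen with earlier results of these data known.

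**Figure D1:**
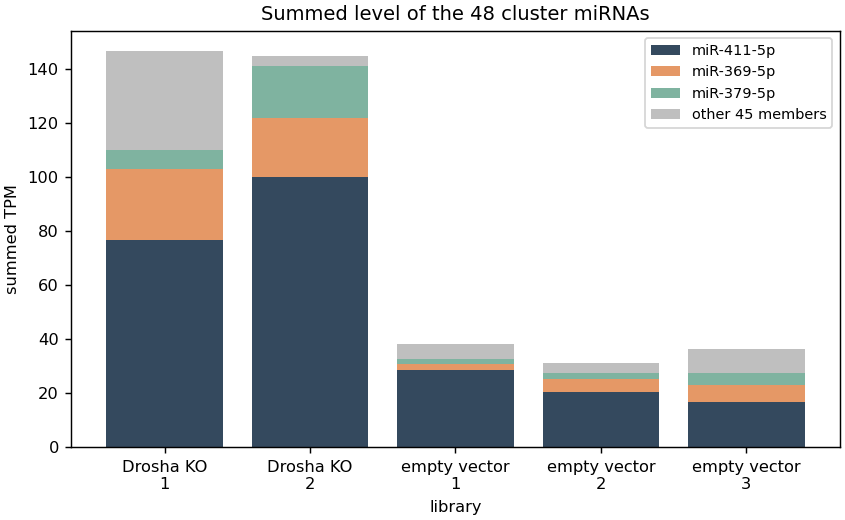
Summed TPM of the 48 cluster miRNAs (y axis) in each library (x axis), divided into miR-411-5p, miR-369-5p, miR-379-5p and the other 45 members. Both knockout bars reach about 4 times the height of the empty-vector bars, a direction that turned with libraries set to an equal Drosha-independent sum, and the grey part is large in knockout library 1 and small in knockout library 2.

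Counted as reads, the members had 43 and 38 in the knockout, against 83, 61 and 68 with the empty vector. They made up 0.0201% (95% exact binomial interval 0.0145% to 0.0270%) and 0.0189% (0.0134% to 0.0260%) of the reads in the knockout libraries. The shares were 0.00514% (0.00410% to 0.00638%), 0.00416% (0.00318% to 0.00534%) and 0.00505% (0.00392% to 0.00640%) in the empty-vector libraries. No interval of a knockout library reached that of an empty-vector library. At the empty-vector share of reads, 19.9 reads would have been counted over both knockout libraries, where 81 were.

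Most members gave no read at all. Reads were found for 15 members, and 33 were at 0 in all 5 libraries, where depth allows levels up to the limits given above. By library, 9 and 4 members had reads in the knockout, against 8, 7 and 9 in the empty-vector group, so the groups overlapped. Only 3 members, miR-411-5p, miR-369-5p and miR-379-5p, had reads in every library, and 4 had reads in both knockout libraries, the fourth being miR-376c-5p.

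Because the knockout libraries were shallower, detection was also set at equal depth. Drawn down to the 200659 reads of the shallowest library, 8.80 and 4 members were expected to have reads in the knockout libraries, against 3.28, 3.22 and 4.73 in the empty-vector libraries. Knockout library 2 thus lay within the empty-vector range at equal depth and knockout library 1 above it. The mean difference, knockout minus empty vector, was -1.5 members as sequenced and 2.66 members at equal depth, and without knockout library 2 it was 1 member as sequenced.

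**Figure D2:**
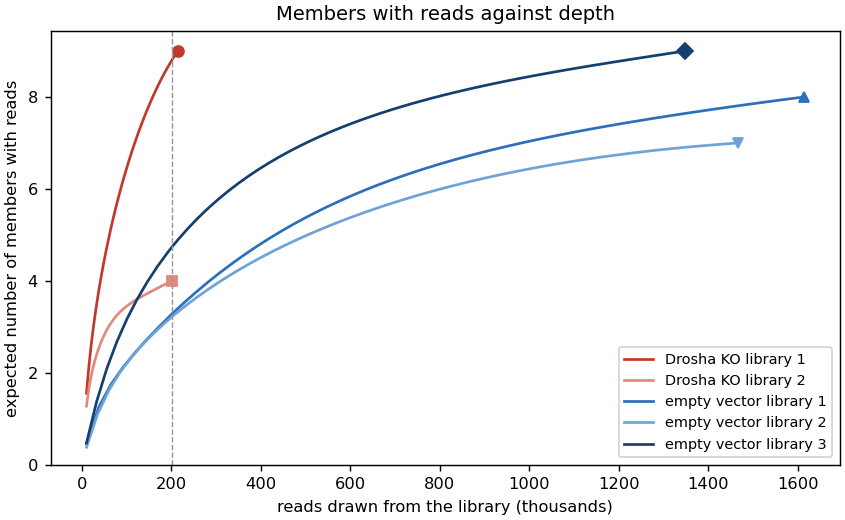
Expected number of cluster miRNAs with reads (y axis) against the number of reads drawn from a library (x axis), as an exact expectation for each of the 5 libraries, with a marker at each library's full depth. At the dashed line, the depth of the shallowest library, knockout library 1 stands at 8.80 members, while the other 4 libraries lie between 3.22 and 4.73.

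Among the listed arms, reads lay almost wholly on the distal side of the locus. The opposite arms of the proximal hairpins, and of most distal hairpins, were not listed. Whether this contrast holds for the locus as a whole was therefore not tested. Of the 37 distal members 14 had reads, and of the 11 proximal members only miR-431-5p did, with 1 read in knockout library 1. The proximal members include miR-127, miR-136, miR-431, miR-433 and miR-434, whose hairpins lie opposite Rtl1 (chr12:109589193-109600330, minus strand) and whose products are fully complementary to the Rtl1 transcript. The distal members summed to 143 and 145 TPM in the knockout and made up the whole 38.3, 31.3 and 36.5 TPM of the empty-vector libraries. Of the 15 members with reads, 8 lay within the annotated Mirg gene and 6 overlapped no annotated protein-coding or long non-coding gene.

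**Figure D3:**
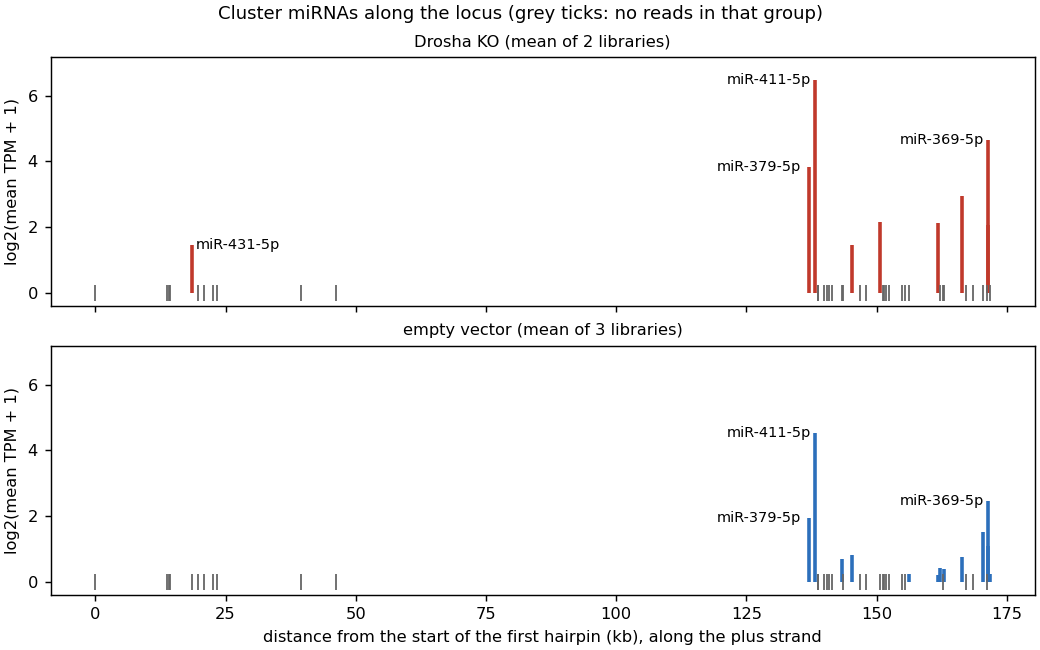
Mean level of each cluster miRNA as log2(mean TPM + 1) (y axis) against the distance of its hairpin from the start of the first hairpin in kb (x axis), for the knockout (upper panel) and the empty-vector group (lower panel); grey ticks mark miRNAs without reads in that group. Among the arms listed, all 5p on the proximal side, miR-431-5p is the only proximal miRNA with a level above 0. The tallest lines in both panels are miR-411-5p and miR-369-5p.

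miR-411-5p, the second miRNA of the distal run, was the most abundant member in every library. It was at 76.5 and 99.9 TPM in the knockout libraries and at 28.6, 20.4 and 16.6 TPM in those with the empty vector, from 22 and 26 reads against 61, 39 and 30. Both knockout libraries were above every empty-vector library. By level it ranked 97 and 94 among all listed miRNAs in the knockout libraries, against 134, 142 and 151 in the empty-vector libraries.

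miR-411-5p rose in the knockout in TPM, though not with libraries set to an equal sum of Drosha-independent miRNAs (-0.48), with a log2 change of 1.98 (95% interval 1.09 to 2.88, limma with Benjamini-Hochberg (BH) adjustment over 205 miRNAs, adjusted p = 0.000712) and a ratio of mean TPM of 4.03. At the empty-vector share of reads, 12.2 reads were expected over both knockout libraries and 48 were counted. Its empty-vector mean of 21.9 ± 6.16 TPM (SD, n = 3) alone exceeded the filter of 5 TPM, so its place in the test did not rest on the knockout.

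miR-369-5p, the 5p arm of a hairpin within Mirg, was at 26.5 and 22 TPM in the knockout libraries and at 2.24, 4.99 and 6.33 TPM in those with the empty vector, from 8 and 6 reads against 5, 10 and 12. The groups did not overlap. The log2 change was 2.27 (95% interval 0.96 to 3.58, limma, BH-adjusted p = 0.0049), but 0.0089 and not called with an equal Drosha-independent sum. With an empty-vector mean of 4.52 TPM it entered this test only through the knockout; limma over all miRNAs with reads, without the filter, called it as well (BH-adjusted p = 0.0285). The reads over both knockout libraries were 14, where the empty-vector share gave 2.53.

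miR-379-5p, which opens the distal run, was at 6.95 and 19.2 TPM in the knockout libraries and at 1.88, 2.09 and 4.42 TPM in those with the empty vector, from 2 and 5 reads against 4, 4 and 8. Both knockout libraries were higher than any empty-vector library, but they differed from each other more than the lower one differed from empty-vector library 3. The log2 change was 1.80 (95% interval 0.25 to 3.35, limma, BH-adjusted p = 0.0462). With an empty-vector mean of 2.80 TPM it entered the test only through the knockout, and without the filter it was not called (limma, BH-adjusted p = 0.131). The call was also lost with an equal Drosha-independent sum (-0.28), and without empty-vector library 1 (log2 change 1.63), 2 (1.68) or 3 (2.09). Without knockout library 2 the miRNA fell under the filter and had no test.

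**Figure D4:**
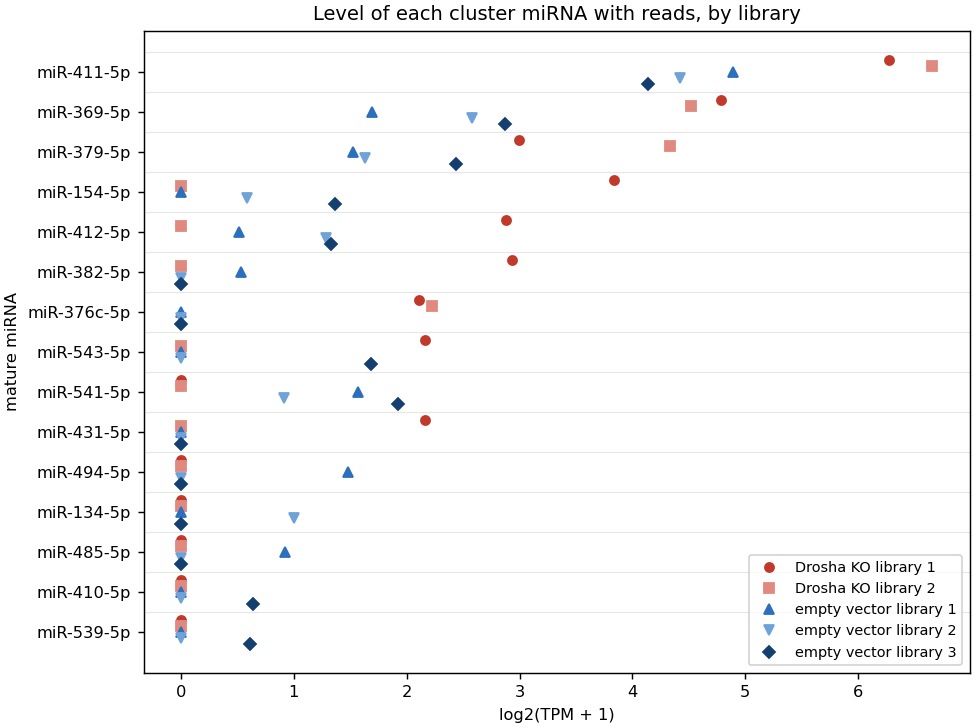
Level of the 15 cluster miRNAs with reads as log2(TPM + 1) (x axis), 1 line per miRNA (y axis) and 1 marker per library. For miR-411-5p, miR-369-5p and miR-379-5p both knockout markers lie to the right of all empty-vector markers on this TPM scale, a direction that miR-411-5p and miR-379-5p lost with an equal Drosha-independent sum, while most of the others have a single high marker, often that of knockout library 1.

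These were the only members that reached the mean of 5 TPM over the 5 libraries required for the test, and all 3 were called higher, none lower. Of the 205 miRNAs tested, 27.8% were called higher and 27.3% lower (57 and 56 miRNAs). Since the knockout alone brought miR-379-5p and miR-369-5p past the filter, the count of 3 is partly set by it, and nothing is read from it. Just outside the filter were miR-154-5p with a mean of 3.07 TPM over the 5 libraries and miR-412-5p with 1.94 TPM, and just inside was miR-379-5p with 6.91 TPM. No member was called lower by limma-voom on recovered reads, where 25.9% of miRNAs were higher and 19.5% lower, or by limma without the filter, where the shares were 11.3% and 9.13%. At an unadjusted p under 0.05 the count of lower members was 0 in limma and in limma-voom. Both fits tested only these 3 members, all with a positive log2 change, so nothing is read from that count. Without the filter it was 1, miR-541-5p (limma, log2 change -1.47, BH-adjusted p = 0.143).

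The direction depended on what the libraries were scaled to. The 7 listed miRNAs made without Drosha, led by miR-484, whose short hairpin is transcribed with a cap, and by the mirtron miR-1981-5p, summed to 27015 and 27548 TPM in the knockout and to 4338, 4245 and 5773 TPM in the empty-vector group. Against that sum the cluster stood at 0.542% and 0.525% in the knockout libraries and at 0.883%, 0.737% and 0.632% in the empty-vector libraries. Both knockout libraries were thus below every empty-vector library. The member reads behind these shares were 43 and 38 in the knockout libraries, against 83, 61 and 68 with the empty vector. No interval was made for these shares, so whether their difference exceeds counting error was not tested. Once the libraries were set to the same sum of the miRNAs made without Drosha, the log2 changes were -0.48 for miR-411-5p, 0.0089 for miR-369-5p and -0.28 for miR-379-5p. None of these was called, while 3 miRNAs (1.46%) were called higher and 160 (78.0%) lower. Under trimmed mean of M values (TMM) scaling 41 were called higher and 80 lower, and miR-379-5p (1.49) lost its call.

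Scaling moved all miRNAs together, so the changes were also set against the median of the 205. That median was -0.08 as deposited, -0.16 under median of ratios, -0.26 under quantile normalization, -0.45 under TMM and -2.53 with an equal Drosha-independent sum. Relative to it, miR-411-5p was 2.07 higher as deposited, 2.08 under TMM, 2.16 under quantile normalization and 2.06 with an equal Drosha-independent sum. miR-369-5p was 2.35, 2.40, 2.00 and 2.54 higher than the median under the same settings, and miR-379-5p 1.88, 1.94, 1.37 and 2.26. TMM and the equal Drosha-independent sum divide each library by a single factor. Subtracting the median removes that factor apart from the pseudocount. Near-equal values under those settings were thus fixed by the arithmetic and are no separate support for a rise.

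**Figure D5:**
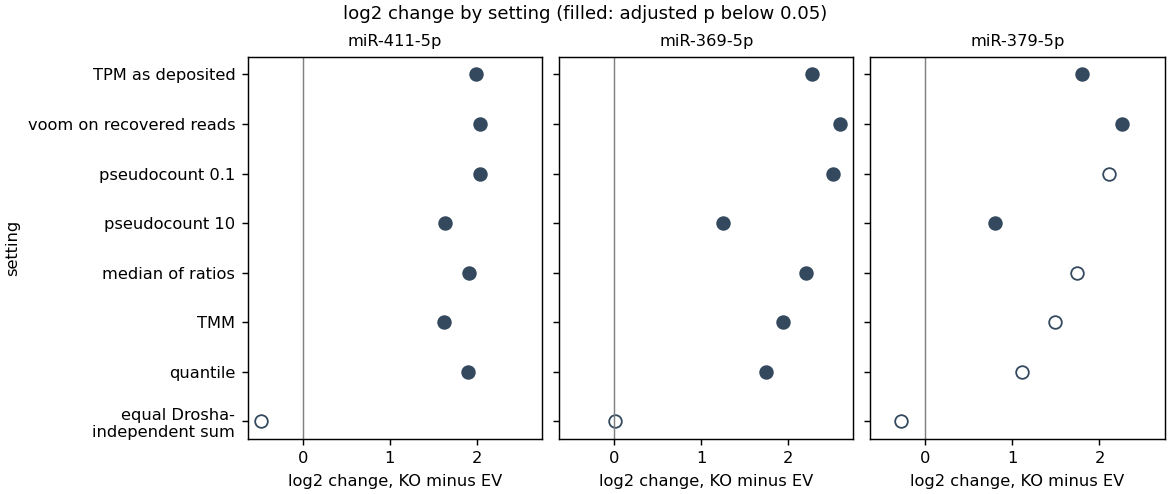
log2 change, knockout minus empty vector (x axis), of miR-411-5p, miR-369-5p and miR-379-5p (panels) under 8 settings (y axis); filled markers are calls at an adjusted p below 0.05. All 3 miRNAs are near or below 0 only in the lowest row, where libraries were rescaled to an equal sum of Drosha-independent miRNAs.

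The proportions of the 3 members to each other overlapped between the groups. miR-411-5p made up 51.2% (95% exact binomial interval 35.5% to 66.7%) and 68.4% (51.3% to 82.5%) of the member reads in the knockout libraries. In the empty-vector libraries it made up 73.5% (62.7% to 82.6%), 63.9% (50.6% to 75.8%) and 44.1% (32.1% to 56.7%). For each read of miR-411-5p there were 0.364 and 0.231 reads of miR-369-5p in the knockout libraries, against 0.0820, 0.256 and 0.4 in the empty-vector libraries. The same ratio for its neighbour miR-379-5p was 0.0909 and 0.192 in the knockout libraries, against 0.0656, 0.103 and 0.267 in the empty-vector libraries.

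The other 12 members with reads were near the limit of detection. Together they had 11 reads and 1 read in the knockout libraries and 13, 8 and 18 reads in the empty-vector libraries, or 36.5 and 3.67 TPM against 5.54, 3.81 and 9.17 TPM. The groups overlapped, and knockout library 1 held 6 of these members while knockout library 2 held 1. The members with reads in knockout library 1 and none in knockout library 2 were miR-154-5p with 4 reads, miR-382-5p and miR-412-5p with 2 each, and miR-431-5p and miR-543-5p with 1 each.

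miR-154-5p, after which a family of related miRNAs in this region is named, was at 13.3 TPM in knockout library 1 and at 0 in knockout library 2, against 0, 0.499 and 1.58 TPM in the empty-vector libraries. miR-412-5p, from the hairpin 49 bases before Mir369, was at 6.35 and 0 TPM in the knockout libraries and at 0.429, 1.43 and 1.51 TPM in the empty-vector libraries. For both, the groups overlapped. miR-382-5p was at 6.63 and 0 TPM in the knockout libraries and at 0.448, 0 and 0 TPM in the empty-vector libraries. miR-543-5p, at 3.48 and 0 TPM in the knockout libraries and at 0, 0 and 2.21 TPM in the empty-vector libraries, had 5 reads in all.

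Besides miR-431-5p, 7 members had reads in one group alone. miR-376c-5p had 1 read in each knockout library (3.32 and 3.67 TPM) and none with the empty vector. A count of 0 over the 3 empty-vector libraries allows a share that would give up to 0.281 reads over both knockout libraries. Without the filter on low values miR-376c-5p was called (limma, log2 change 2.17, BH-adjusted p = 0.0285), on these 2 reads.

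miR-541-5p was the reverse case, at 0 in both knockout libraries, against 1.97, 0.878 and 2.79 TPM with the empty vector, from 5, 2 and 6 reads. At its empty-vector share 1.22 reads were expected over both knockout libraries, so a difference was not detectable at this depth. The other members with empty-vector reads alone were miR-494-5p with 4 reads, miR-134-5p and miR-485-5p with 2 each, and miR-410-5p and miR-539-5p with 1 each. miR-134 is known from rat neurons, where it restrains dendritic spine growth through Limk1. For each of these 5 the expected knockout count was 0.375 reads or fewer.

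Of the 5 listed miRNAs of other imprinted loci, 2 were abundant enough for the test. At the Gnas locus on chromosome 2, miR-296-5p was at 799 and 649 TPM in the knockout libraries and at 271, 252 and 390 TPM in the empty-vector libraries. Its neighbour miR-298-5p was at 609 and 431.4 TPM in the knockout libraries, against 259, 244 and 249 TPM in the empty-vector libraries. For both, the knockout libraries lay above all empty-vector libraries, with log2 changes of 1.27 (SE 0.28, limma, BH-adjusted p = 0.00078) and 1.03 (SE 0.29, BH-adjusted p = 0.00417), but -1.25 and -1.49 with an equal Drosha-independent sum, where both were called lower. Under TMM scaling miR-298-5p was not called (limma, log2 change 0.66, BH-adjusted p = 0.0598). miR-335-5p of Mest, miR-483-5p of Igf2 and miR-675-5p of H19 had no knockout read and 1, 1 and 2 reads over the empty-vector libraries. With so few reads, and the lower depth of the knockout libraries, their zeros show no direction. Those 3 were not tested, so 2 of 2 tested were called higher and 0 lower, beside 27.8% and 27.3% of all tested miRNAs.

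Other miRNA clusters had more members in the same fit. Of 30 tested members of the Sfmbt2 intron array, 0 were called higher and 21 lower, beside 27.8% and 27.3% of all tested, with a median log2 change of -1.19. Several had identical values and share reads, so that 26 distinct sets of values were tested and 18 called lower. By limma-voom on recovered reads 12 of the 30 were called lower. Of 5 tested members of the miR-17~92 cluster and its paralogues 2 were called higher and 1 lower, with a median of 0.46, beside -0.08 for all tested miRNAs. With an equal Drosha-independent sum, 29 of the 30 and all 5 were called lower. Whether the Dlk1-Dio3 miRNAs differ from these clusters was not tested.

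Markers of cells that are rich in other miRNAs were low, and they went in both directions, some higher and some lower in the knockout. Of 10 listed neural miRNAs 4 had reads, summing to 82.8 and 120 TPM in the knockout libraries and to 54.0, 78.2 and 71.6 TPM in the empty-vector libraries, most of it miR-138-5p, while miR-124-5p was at 0 in all 5. The neural miR-9-5p was lower in TPM, at 9.52 and 3.51 in the knockout libraries against 14.6, 15.3 and 15.6 in the empty-vector libraries. It was not called (limma, log2 change -1.23, BH-adjusted p = 0.0868). miR-124b-3p had reads in the empty-vector libraries alone, at 7.17, 2.5 and 0.528 TPM. These are below the levels that 0 reads allow in the knockout libraries, so its zeros there show no direction. Of the haematopoietic list 2 of 5 had reads, with sums of 19.9 and 73.3 TPM in the knockout libraries against 18.4, 11.5 and 18.5 TPM in the empty-vector libraries. In that list miR-142a-5p, miR-144-5p and miR-223-5p were at 0. The haematopoietic miR-451a was at 19.9 and 58.7 TPM in the knockout libraries, against 8.06, 4.99 and 7.91 TPM in the empty-vector libraries. For miR-150-5p, at 0 and 14.7 TPM against 10.3, 6.49 and 10.6 TPM, the groups overlapped. The liver miRNA miR-122-5p was at 36.5 and 25.7 TPM in the knockout libraries, against 11.6, 12 and 5.28 TPM in the empty-vector libraries. Their part in the result was not tested.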

How the data were processed

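Small RNAs of OP9 cells were read in 2 Drosha knockout and 3 empty-vector libraries. Library construction used unique molecular identifiers, per the labels' protocols. The authors deposited TPM values for 1191 combinations of mature miRNA and precursor. Bowtie2 2.5.1 and GRCm38 are named without a role, per the submitters' processing notes. How reads were counted and filtered, and whether strand or the identifiers were used, was not stated there.

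Reads were recovered from the deposited TPM by finding, per pair, a length of 15 to 30 bases at which every value was whole within 1e-06. This held for 100% of values, and the length equalled that of the RefSeq mature miRNA for all 406 pairs with reads and a sequence. For a miRNA listed at several precursors the precursor with the highest mean value was taken.

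Groups were compared with limma 3.58.1 (R 4.3.3) with a mean-variance trend on log2(TPM + 1). The variance of each miRNA was moderated towards that of miRNAs of similar level, with 24.2 prior against 3 residual degrees of freedom. Most of the variance behind each p-value was therefore borrowed from other miRNAs. The fit covered the 205 miRNAs whose mean reached 5 TPM, and tests were two-sided, with Benjamini-Hochberg adjustment and a threshold of 0.05. Fold changes on this scale understate those of low miRNAs. The procedure was also run on simulated reads, with the same spread in both groups. That outcome is not reported here, and nothing is read from it. Hairpin positions and sequences came from RefSeq (GRCm38.p6) and genes from GENCODE. A mature sequence was given for 47 of the 48 members; miR-485-5p was without one, and miR-544 and miR-666 without a hairpin.

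Members named in full were those tested, those with reads in both knockout libraries, the 6 highest in the empty-vector group and the 5 just below the filter. The members and lists were chosen with earlier results of these data known. Likeness between miRNAs was not computed, since 5 libraries are too few for a correlation. Alternatives were other pseudocounts, filters and scalings, limma-voom on recovered reads, robust moderation, summed precursors, a replicate block and leaving out each library.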

Additional observations from a re-analysis of the deposited data

How the results depend on the processing

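The rise of miR-411-5p kept its direction and call in 17 of 18 alternatives (log2 change 1.62 to 2.19) and that of miR-369-5p in 16 of 17 (1.25 to 2.59). miR-379-5p stayed called in 4 of 16, among them limma-voom on recovered reads (2.25). As these last 2 passed the filter only through the knockout, their counts of calls are no sign of stability; without the filter miR-369-5p was called and miR-379-5p was not. The exception for all 3 was rescaling to an equal Drosha-independent sum, with -0.48 for miR-411-5p, -0.28 for miR-379-5p and 0.0089 for miR-369-5p. There the number of members called higher was 0 and the log2 ratio of member sums -0.49, against 2.04 as deposited; that scaling divides by a sum that was itself 5.70-fold higher in the knockout. Requiring a mean of 20 TPM left 1 member tested and 1 called higher. Without each library in turn, 2 to 3 members were called higher and 0 lower, the log2 ratio of sums was 1.96 to 2.10, and the mean difference in members with reads was -4 to 1; at equal depth it was 2.66, against -1.5 as sequenced.

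Over all miRNAs 56 were called lower, but 29 without empty-vector library 1, 35 with the replicate block and 160 with an equal Drosha-independent sum, where 3 were higher against 57. Deviations of same-numbered libraries from their group means had correlations of -0.117 and -0.135 over 2 pairs. With 2 knockout libraries those deviations are mirror images of each other, so these values cannot decide whether the numbers pair the groups. The labels do not say that they do. With the replicate block on libraries 1 and 2 of each group, 2 members were called higher and miR-379-5p (2.09) was not (limma, BH-adjusted p = 0.175). The same 4 libraries without the block, a setting chosen after seeing the data, are those left without empty-vector library 3. It is thus the same fit, with the same 2 members called higher. It adds no support and enters the counts of alternatives above under both names. With 38 to 83 member reads per library, members outside the 3 tested cannot be compared singly.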

Other observations

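RefSeq placed 13 further hairpins in the same stretch of chromosome 12, from Mir770 to Mir3072, whose numbers were not among those chosen. Of these, 7 mature miRNAs were listed and 1, miR-493-5p, had reads. It had 0 and 1 read in the knockout libraries (4.25 TPM in library 2) and 0, 0 and 1 read in the empty-vector libraries (0.611 TPM in library 3). miR-770-5p of Meg3, miR-882, miR-1188-5p, miR-3071-5p, miR-3072-5p and miR-3544-5p were at 0 in all 5 libraries. In first bases, 11 of the 14 members with reads and a sequence began with U or A (78.6%), against 69.1% of the 938 listed miRNAs with a sequence.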
